A study of Mus musculus with 6 samples.

Results

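The nuclear genes of oxidative phosphorylation were examined in hematopoietic stem cells (HSC) of mice that had received serial transplants of WT or p190-B-/- cells. Members were all non-control array probes whose gene name in the files begins with Nduf, Uqcr, Cox4 to Cox8 or Atp5, or is Sdha, Sdhb, Sdhc, Sdhd, Cyc1 or Cycs. The rule took 125 of 39429 probes, naming 92 genes. No measured value entered the choice. Of these genes, 36 were counted with complex I, 4 with complex II, 9 with complex III, 20 with complex IV and 15 with complex V. The remaining 8 were described apart, because they encode assembly factors (Ndufaf1 to Ndufaf4), cytochrome c itself (Cycs) or proteins that are not standing subunits (Ndufa4l2, Atp5s and Atp5sl). Ndufa4 was counted with complex IV, where its protein resides. The name pattern also placed Cox4nb, an endoplasmic reticulum protein gene, with complex IV, but its probe did not reach the tests.

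In oxidative phosphorylation, complex I takes electrons from NADH and complex II takes them from succinate. Electrons then pass through complex III and the mobile carrier cytochrome c to complex IV, which reduces oxygen. Complexes I, III and IV pump protons, and complex V, the ATP synthase, uses the proton gradient to make ATP. Most subunits are encoded in the nucleus and a few in mitochondrial DNA. Resting HSC are known for low mitochondrial respiration, and respiration is known to increase as they divide and differentiate.

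LSK-SLAM cells (lineage-negative, c-Kit- and Sca-positive, CD150-positive and CD48-negative) were sorted from the marrow of secondary recipients. The donors were mid-gestation fetal livers of p190-B-/- embryos, which lack the RhoGAP encoded by Arhgap5 in every cell, or of their WT littermates. Donor cells were first engrafted with competitor marrow in lethally irradiated congenic mice, whose marrow was later moved to further lethally irradiated mice. The groups are named 2T-WT and 2T-p190-B-/-, with 3 arrays each, and transplantation, irradiation and competitor cells are common to both. The sources describe separate recipients within each group, but do not say how many mice made up an array, the age of the recipients, or whether the sort kept donor cells alone. Amplified cDNA was labelled in 1 colour.

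Before scaling, the 75th percentile of the signal ran from 53.9 to 227 on the 2T-WT arrays and from 252 to 385 on the 2T-p190-B-/- arrays. The share of all probes well above background ran from 48.4% to 66.5% in 2T-WT and from 53.0% to 73.1% in 2T-p190-B-/-. The single Arhgap5 probe was well above background on 0 of 3 2T-WT and 1 of 3 2T-p190-B-/- arrays, so that the targeted gene could not check the labels. Of 17 genes listed as HSC markers, 12 were tested, 6 with a positive and 6 with a negative difference and a median of 0.11. Slamf1 (CD150) and Procr were well above background on no array. The brightest tested HSC marker, Fgd5, was at 5.15 to 7.06 as log2 in 2T-WT and at 4.42 to 5.38 in 2T-p190-B-/-. The summed linear level of all HSC markers on the array, tested or not, was 59.0 to 173 in 2T-WT and 38.5 to 73.9 in 2T-p190-B-/-, in multiples of the 75th percentile. That of the B lymphocyte markers (9 of 10 tested, 2 with a positive and 7 with a negative difference, 0 past the test) was 128 to 1056 and 83.0 to 116. Cd22 was bright on every array (6.24 to 8.36 as log2), and Cd79a was at 9.47 on 2T-WT replicate 3 but at -3.80 and -3.35 on the other 2T-WT arrays. The sums of the red cell precursor markers (331 to 987 and 214 to 302; 7 of 14 tested, 4 positive and 3 negative; Hbb-b1 and Tfrc above background on no array) and of the monocyte and macrophage markers (59.4 to 157 and 31.7 to 48.7; 6 of 8 tested, 3 positive and 3 negative; Ly86 on no array) also lay lower in 2T-p190-B-/- without overlap. Most of each of these 2 sums came from 1 bright probe. In the red cell list, Ermap was at 8.33 to 9.94 as log2 in 2T-WT and at 7.71 to 8.21 in 2T-p190-B-/-. In the monocyte list, Csf1r was at 5.77 to 7.24 in 2T-WT and at 4.85 to 5.45 in 2T-p190-B-/-. The sums of the neutrophil, T lymphocyte and megakaryocyte markers overlapped. Whether marrow cells of other types entered the values below was not tested. In these bulk samples, fewer cells of a type and less RNA per cell cannot be told apart. Both genotypes shared slide 2 alone, which held 4 arrays and lacked 2T-WT replicate 1 and 2T-p190-B-/- replicate 3, placed on slides of their own.

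Many subunit genes that nearly every cell uses gave little or no signal. A probe was tested if it was well above background on at least 3 of 6 arrays, which 75 of 125 member probes (60%) and 63.8% of all probes met. Of the 92 member genes, 58 were tested, 37 were well above background on all 6 arrays by at least 1 probe, and 11 on no array. By complex, 21 of 36 genes of complex I, 3 of 4 of complex II, 8 of 9 of complex III, 13 of 20 of complex IV, 9 of 15 of complex V and 4 of the 8 described apart were tested. On single arrays, 46.4% to 61.6% of member probes were well above background in 2T-WT and 49.6% to 71.2% in 2T-p190-B-/-, so that the groups overlapped.

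**Figure D1:**
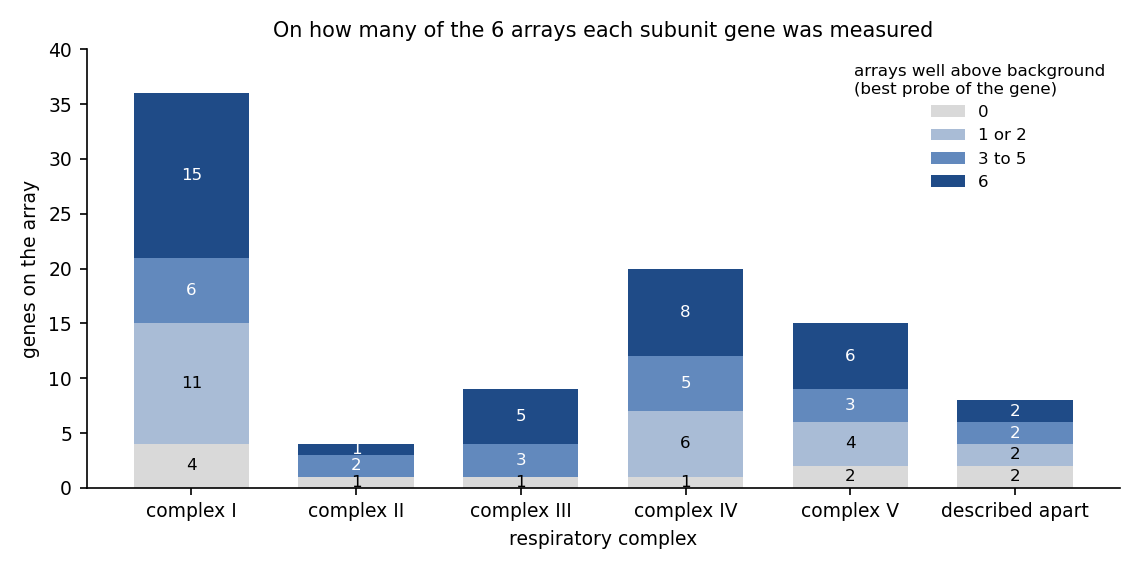
Number of member genes on the array (vertical axis) by respiratory complex, shaded by the number of arrays, from 0 to 6, on which the best probe of the gene was well above background. Complex I had 15 of 36 genes measured on all 6 arrays and 4 on none, and every complex held at least 1 gene that was measured on no array.

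The gaps included subunits at the catalytic centre of the complexes. Of a list of 17 core subunits, 7 did not reach the tests and 3 of these were well above background on no array: Sdha, the flavoprotein that oxidizes succinate, Uqcrfs1, the Rieske iron-sulfur protein of complex III, and Atp5a1, the alpha subunit of ATP synthase. Atp5b, the catalytic beta subunit, and Ndufs1, the largest iron-sulfur subunit of complex I, were each well above background on 1 array. Ndufv1, which binds NADH, and Cox5b, a structural subunit of complex IV, were well above background on 2 arrays each. The other 10 core genes were tested, 2 of them higher and 8 lower in 2T-p190-B-/-, with a median log2 difference of -0.29. Of all 16011 genes tested, 6109 were higher and 9902 lower, with a median of -0.36. These counts describe probes: a dim probe gives no level for its gene.

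Several complex IV subunits exist as a ubiquitous isoform and an isoform that textbooks place in muscle, lung, testis or hypoxic cells. In the sorted cells, probes of 5 of 7 restricted isoforms were well above background on all 6 arrays, against 1 of 6 ubiquitous ones. Cox6a2, the heart and skeletal muscle form, was measured on all 6 arrays, while its ubiquitous partner Cox6a1 was measured on 1. The muscle form Cox7a1 was likewise measured on all 6, and the ubiquitous Cox7a2 on 1 of 3 2T-WT and 2 of 3 2T-p190-B-/- arrays. For the testis form Cox6b2 the count was 6, and for Cox6b1 it was 3. Ndufa4l2, the hypoxia-induced relative of Ndufa4, was measured on all 6 arrays and Ndufa4 on 1. Cox4i1 and its lung form Cox4i2 were both measured on all 6. In the Cox8 family the order was the other way, with Cox8a measured on 5 arrays, the muscle form Cox8b on 3 and the testis form Cox8c on 0. Brightness cannot be compared between probes, and the counts do not rank the isoforms.

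**Figure D2:**
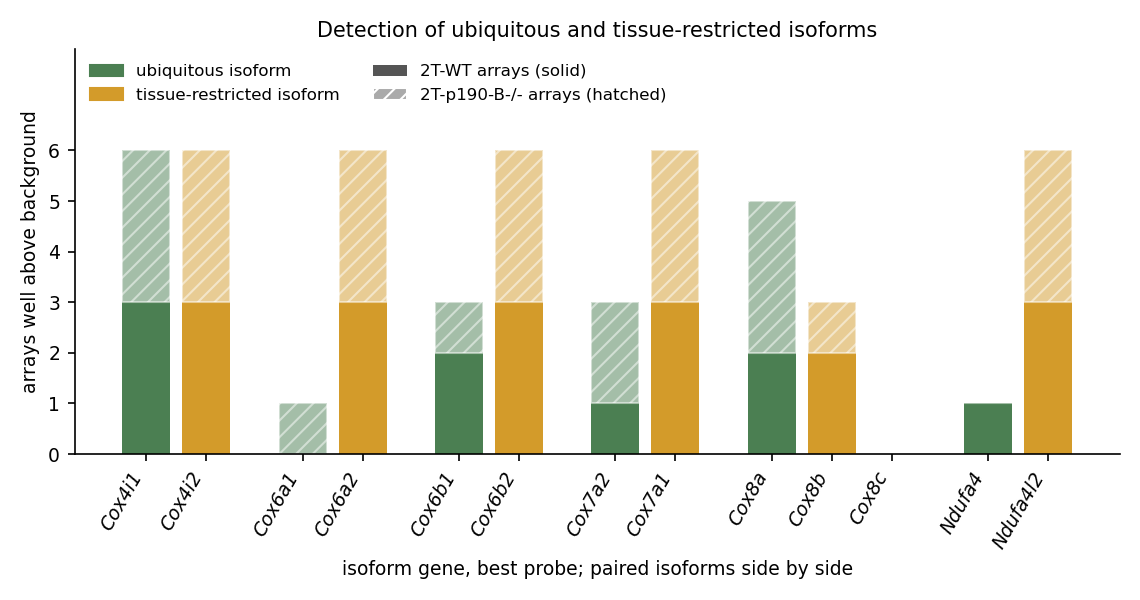
Arrays on which the best probe of an isoform gene was well above background (vertical axis, 0 to 6), with 2T-WT arrays solid and 2T-p190-B-/- arrays hatched, and ubiquitous isoforms in green beside tissue-restricted ones in ochre. Cox6a2, Cox6b2, Cox7a1, Cox4i2 and Ndufa4l2 reached all 6 arrays, whereas Cox4i1 was the sole ubiquitous isoform to do so.

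Detection moved with the base composition of the probe. The median GC content was 35% for the 19 member probes never well above background, 41.7% for the 65 probes above it on 1 to 5 arrays, and 46.7% for the 41 above it on all 6. Across all probes the same classes had medians of 35%, 41.7% and 45%. Among the isoforms, the Cox6a2, Cox6b2 and Cox7a1 probes each had 55% GC, the Cox7a2 probe 35% and the Ndufa4 probe 36.7%, but the Cox6a1 probe had 51.7% and was measured on 1 array. The part of base composition in the counts of detected subunits was not tested further.

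Between genotypes, no subunit gene passed limma's test. The lowest adjusted p among the 58 tested member genes was 0.411, and over all 25160 probes 0 passed an adjusted p of 0.05 (0.0%), with 0.0721 as the lowest. At an unadjusted p under 0.05, limma called 3 member genes (Atp5l, Atp5o and Ndufb7) and 6.57% of all probes. The methods' t-test was cut here at a p of 0.05 or less with a 2-fold difference. It took Atp5l as higher in 2T-p190-B-/- (2.02% of all genes) and Atp5o and Ndufb7 as lower (4.48% of all genes). Differences from here on are log2 values, 2T-p190-B-/- minus 2T-WT, for the brightest tested probe of a gene.

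The groups did not overlap for 8 member genes. Atp5l and Ndufa2 lay higher on every 2T-p190-B-/- array, which is 3.45% of tested member genes against 4.17% of the whole set of tested genes. Atp5o, Atp5g1, Ndufb7, Ndufa5, Sdhc and Ndufa4l2 lay lower on every 2T-p190-B-/- array, 10.3% against 12.6%. Both shares were thus near the background. Atp5o passed the filter through 2T-WT alone, which fixed its direction. With 3 arrays on each side, complete separation gives an exact two-sided permutation p of 0.1, the smallest this design allows.

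Across the 58 genes, 25 differences were above 0 and 33 below, with a median of -0.11. The median of all 16011 genes tested was -0.36, with 6109 above and 9902 below 0. By complex the median was -0.05 for complex I (10 higher, 11 lower), -0.92 for complex II (3 lower), -0.20 for complex III (3 higher, 5 lower), -0.38 for complex IV (5 higher, 8 lower) and 0.20 for complex V (5 higher, 4 lower). Complexes I, III and V therefore lay above the median of all genes, complex II below it and complex IV next to it. These medians describe few genes each and were not tested against one another. The spread between arrays was as large as the shifts: the median within-group SD was 1.09 over member genes and 1.04 over all genes. Of the member differences, 21 of 58 exceeded the SD of their own gene, and over all genes 6456 of 16011 did so.

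**Figure D3:**
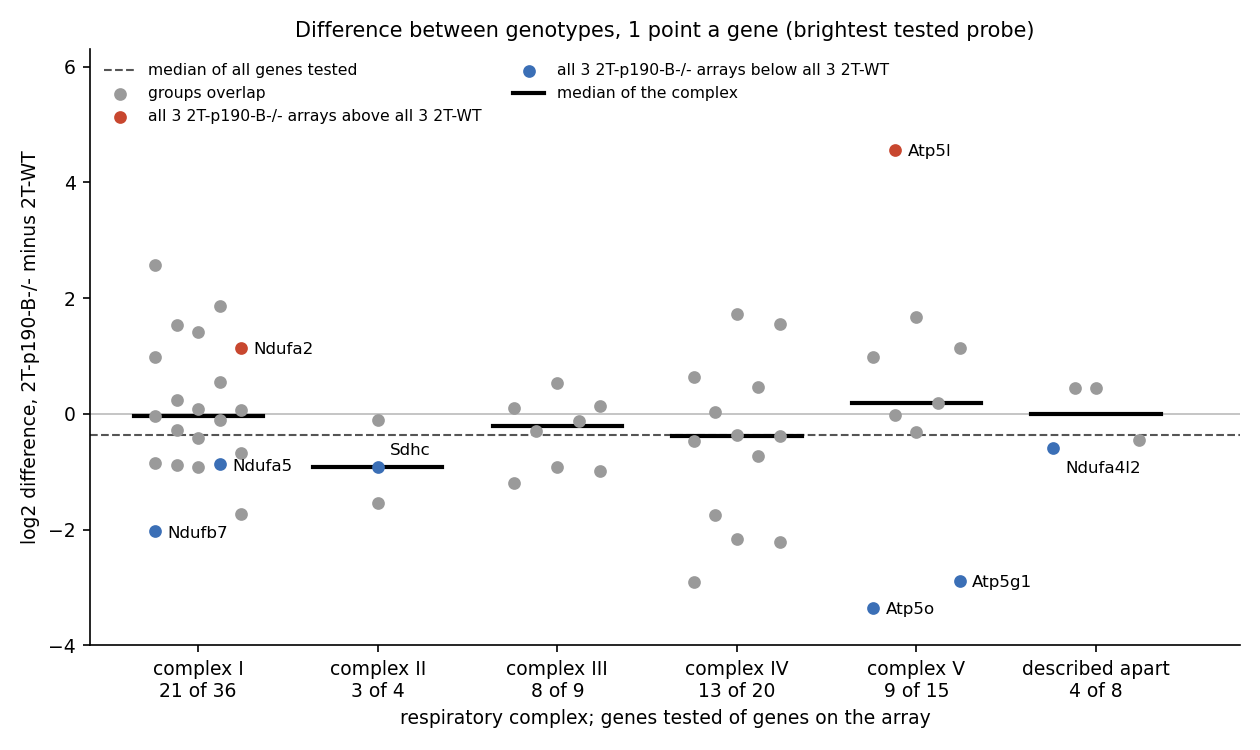
Log2 difference between genotypes (vertical axis) of the 58 tested member genes by respiratory complex, 1 point a gene, with red and blue points for genes whose groups did not overlap, thick bars for the median of each complex and a dashed line for the median of all genes tested (-0.36). The complex medians lay between -0.92 and 0.20, while single genes ran from -3.35 to 4.56, both extremes in complex V.

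The complex medians shifted when single arrays were left out. That of complex V ran from -0.40, when 2T-p190-B-/- replicate 2 was left out, to 1.11, when 2T-p190-B-/- replicate 3 was. It was 0.91 without 2T-WT replicate 1, and -0.02 when 2T-p190-B-/- replicate 1 was dropped. Complex I gave -0.56 when that last array was dropped and 0.33 if 2T-p190-B-/- replicate 2 was dropped instead. On slide 2 alone the medians were 0.18, -1.31, -0.36, -0.26 and 1.83 for complexes I to V. Restricted to genes above background on all 6 arrays, complex III had a median of -0.92 over 5 genes. Complexes II, III and IV kept a median below 0 in each of these settings. The median of all probes was below 0 in each of them too, from -0.47 on slide 2 alone to -0.24 without 2T-WT replicate 3.

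In complex I, Ndufb7, an accessory subunit of the membrane arm, gave the clearest separation. Its probe lies at chr8:86095445-86095504 (mm9, + strand), and its first 30 bases are shown because it is the single complex I probe past the methods' threshold.
Ndufb7: gccctgaggtggccctgtagggattacccg
It was at 2.10, 2.02 and 1.05 on the 2T-WT arrays and at 0.62, -0.61 and -0.94 on the 2T-p190-B-/- arrays. All 6 arrays were well above background, and the lowest 2T-WT array lay 0.44 above the highest 2T-p190-B-/- array. The difference was -2.03 ± 0.75 (SE, n = 3 per group; limma adjusted p = 0.637), -1.53 ± 1.00 on slide 2 alone, and -1.23 with normexp background correction.

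Ndufa5, an accessory subunit of the matrix arm, was at 1.79, 1.30 and 2.53 in 2T-WT and at 0.84, 0.94 and 1.22 in 2T-p190-B-/-. The groups stood apart by 0.08, less than the spread of either. Its second tested probe overlapped between groups, with a difference of -0.32 against -0.87 for the brighter one, which became -0.28 with normexp and -0.54 without 2T-WT replicate 3. Ndufa2, another matrix arm subunit, was at -2.04, -0.96 and -1.27 in 2T-WT and at -0.51, 0.58 and -0.92 in 2T-p190-B-/-, a difference of 1.14 ± 0.74 (SE) with a gap of 0.03 between groups. That difference was 0.28 with normexp and 0.70 without 2T-p190-B-/- replicate 2.

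Core subunits of complex I pointed both ways, and their groups overlapped. Ndufs7, which carries the last iron-sulfur cluster before quinone, was at -0.63, -1.43 and -1.13 in 2T-WT and at -1.15, 0.18 and 3.37 in 2T-p190-B-/-, so that its difference of 1.86 came from 2 of 3 arrays. Ndufs8, also an iron-sulfur subunit, was at 0.82, -2.89 and 1.09 in 2T-WT and at -1.41, -2.44 and -2.31 in 2T-p190-B-/-, a difference of -1.73 ± 1.12 (SE). Among accessory subunits, Ndufv3 and Ndufa10 had differences of 1.54 ± 0.83 and 1.41 ± 0.84 (SE). The wide range within 1 complex, from -2.03 to 2.58, rested on single probes for most genes.

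Complex II was the smallest set and the 3 tested genes all had differences below 0. Sdhc, a membrane anchor that holds the heme, was at -0.99, -0.40 and 0.80 in 2T-WT and at -1.21, -1.02 and -1.13 in 2T-p190-B-/-. The 2T-p190-B-/- arrays lay within 0.19 of each other and the gap to 2T-WT replicate 1 was 0.02. The difference was -0.92 ± 0.73 (SE), and its second probe gave -1.53 ± 0.79 with overlap. Without 2T-WT replicate 3 the first became -0.42. Sdhd, the other anchor, had a difference of -1.55 ± 0.94 (SE), and Sdhb, the iron-sulfur subunit, one of -0.11 ± 0.74 (SE). Both were well above background on 4 arrays. Sdha, the catalytic subunit, was not measured.

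No complex III gene separated the groups. Uqcrb, a subunit near the quinone site, had 3 probes above background on all 6 arrays, and they gave -0.92, -0.73 and -0.09. Uqcrq, another small subunit, differed by -0.99 ± 0.75 (SE). Uqcr11 was at -1.10, 3.70 and -1.49 in 2T-WT, and its difference turned from -1.20 to 0.47 without 2T-WT replicate 2. Cyc1, the cytochrome c1 heme protein, was among the steadiest subunits, at -0.58, -0.57 and 0.33 in 2T-WT and -0.95, -0.22 and -0.02 in 2T-p190-B-/-, a difference of -0.12 ± 0.69 (SE). Uqcrc1, a core protein of the matrix side, was above background on 3 arrays and differed by 0.14 ± 1.26 (SE).

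Complex IV held the widest spread between arrays of a group, with a median SD of 1.78 over its 13 tested genes, and no gene without overlap. Cox4i1 was at -1.48, 5.70 and -1.85 in 2T-WT and at -2.38, -1.30 and -2.67 in 2T-p190-B-/-, so that 2T-WT replicate 2 stood 7.18 above the next 2T-WT array. The difference was -2.91 ± 1.86 (SE) with all arrays and -0.45 ± 0.82 without 2T-WT replicate 2. Cox5a, its neighbour in the complex, was at -4.85, -0.66 and 3.35 in 2T-WT alone, with 2 arrays of each group well above background.

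Cox6a2 was at 4.36, -0.44 and 4.66 in 2T-WT and at 1.59, 0.84 and 0.87 in 2T-p190-B-/-. Its 2T-WT arrays thus lay on both sides of the other group, with a difference of -1.76 ± 1.33 (SE). The other restricted isoforms measured throughout differed less: Cox7a1 by -0.38 ± 0.72, Cox4i2 by 0.02 ± 0.71 and Cox6b2 by 0.64 ± 0.88 (SE). Of the ubiquitous forms, Cox7a2 differed by 1.72 ± 1.78, Cox6b1 by 0.46 ± 1.45 and Cox8a by 1.56 ± 1.01 (SE). The 2 tested Cox8a probes disagreed, the dimmer giving -0.13. Cox8b, above background on 3 arrays, differed by -2.21 ± 1.20 (SE).

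Complex V contained both extremes of all members under the scaling used here, though not with normexp background correction, where Atp5l (1.64) lay next to Atp5j2 (1.65) and Atp5o (-2.10) was passed by Cox4i1 (-2.97) and Cox5a (-2.32). Atp5o, the OSCP subunit that ties the catalytic head to the peripheral stalk, was at -1.57, 0.43 and -1.83 in 2T-WT and at -4.74, -4.66 and -3.61 in 2T-p190-B-/-. Every 2T-WT array and no 2T-p190-B-/- array measured it well above background. It so passed the filter through 2T-WT alone, which fixed its direction. Of the genes tested across the array, 13 were above background on no 2T-p190-B-/- array and 163 on no 2T-WT array. Set against the lowest signal that counts as well above background, or the probe's own where higher, Atp5o was at least 6.72-fold lower in 2T-p190-B-/- (limma adjusted p = 0.590). The fitted difference of -3.35 ± 0.84 (SE), and -4.0 on slide 2 alone, is set against signals that were not well above background. Its single probe lies at chr16:91925542-91925601 (mm9, - strand), and its first 30 bases are given because the result rests on this probe.
Atp5o: aattggggagaagtaccttgttatgtctgc

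**Figure D4:**
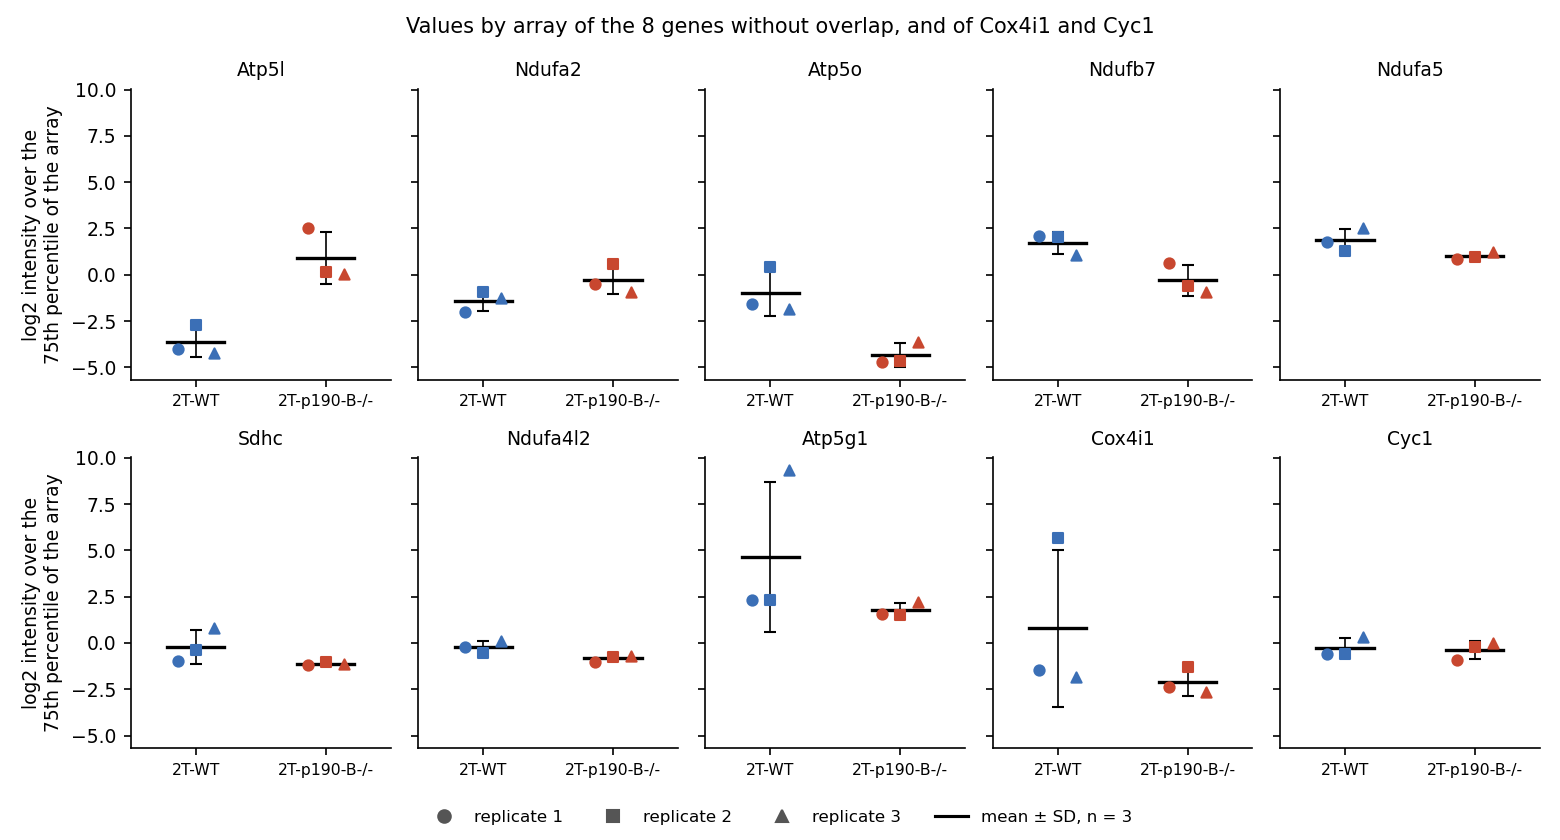
Log2 intensity relative to the 75th percentile of the array (vertical axis) in 2T-WT (blue) and 2T-p190-B-/- (red), 1 panel a gene, with a symbol for each replicate and lines for the mean ± SD (n = 3), for the 8 genes without overlap and for Cox4i1 and Cyc1. The low group of Atp5l was well above background on 1 of 3 arrays and that of Atp5o on 0 of 3, so that their gaps have no exact size; the gap is 0.44 in Ndufb7 and at most 0.13 in the other 5 genes without overlap, and 1 array sets the 2T-WT mean of Atp5g1 and of Cox4i1.

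Atp5l, subunit g of the membrane part, was the opposite extreme. Its brightest tested probe was at -3.99, -2.73 and -4.25 in 2T-WT and at 2.52, 0.14 and 0.05 in 2T-p190-B-/-, a difference of 4.56 ± 0.91 (SE; limma adjusted p = 0.411) and 4.82 on slide 2 alone. It was well above background on 1 of 3 2T-WT and 3 of 3 2T-p190-B-/- arrays. A second probe, A_55_P2000909, was above background on no 2T-WT array and on all 3 2T-p190-B-/- arrays, at least 14.4-fold higher in 2T-p190-B-/- (limma adjusted p = 0.373). It passed the filter through 2T-p190-B-/- alone, which fixed its direction. The other 3 Atp5l probes were less clear. A_55_P2048656 overlapped between groups, with a difference of 1.63 ± 1.29 (SE), and A_55_P2026669 and A_55_P2067682 were above background on 2 and 1 arrays and were not tested.

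The 5 Atp5l probes are all placed within chr9:44721315-44721483 (mm9, - strand), but they do not carry the same bases, and 3 further names on the array have probes close to them. A stretch of 30 bases that 5 of these probes share is shown, in lower case where the bases equal those of A_55_P2000909 and in capitals where they differ, because the probes differ there.
Atp5l A_55_P2000909: attggaccatgtgtaacaggactgctatct
Gm9391 A_55_P2048655: Cttggaccatgtgtaacaggactgctatct
Gm4853 A_55_P2002602: CttggaccatgtgtaacGggactgctatct
Atp5l A_55_P2024021: CttggaccatgtgtaaAGAgactgctatct
Atp5l A_55_P2026669: TttggaccatgtgtaacGggacCgctatct
Positions are counted from 1 at the left end. The Gm9391 probe, on chromosome 14, differs from A_55_P2000909 by A1C, and the brightest Atp5l probe, A_55_P2024021, by A1C, C17A, A18G and G19A. The Gm4853 probe, on chromosome X, differs by A1C and A18G.

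The probes of these copies were measured more often in 2T-p190-B-/-. Gm9391 was above background on no 2T-WT array and on all 3 2T-p190-B-/- arrays, at least 4.03-fold higher (limma adjusted p = 0.582), and like A_55_P2000909 it was tested through 2T-p190-B-/- alone, so that its direction is no support for that of Atp5l. Gm4853 was above background on 0 and 2 arrays, and Gm6822, on chromosome 1, on 1 and 2 arrays with a difference of 1.68 ± 1.36 (SE). In 7 of the 8 probes 2T-p190-B-/- replicate 1 was the brightest of all arrays. Signal of Atp5l and of its near-identical copies cannot be told apart with these probes.

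**Figure D5:**
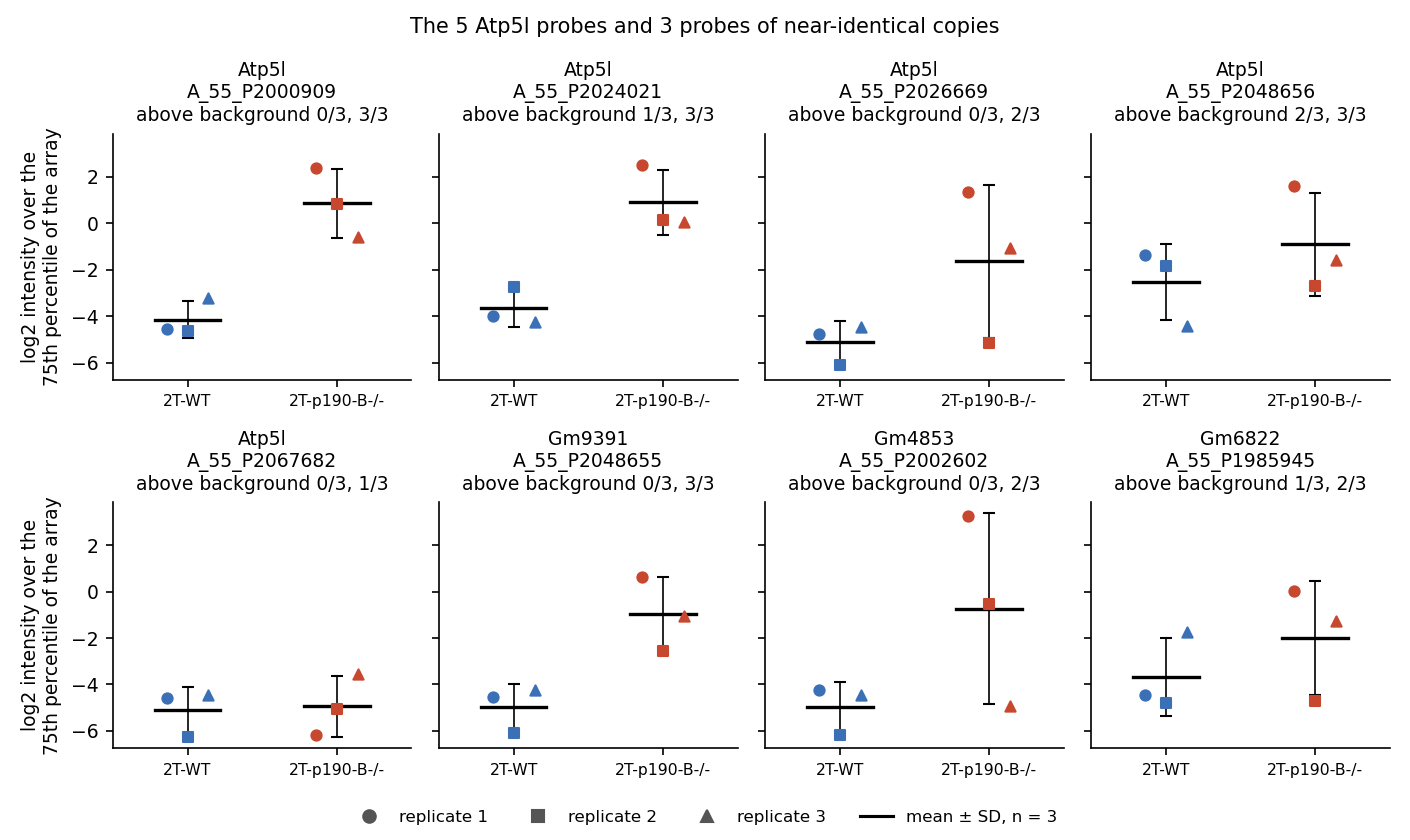
Log2 intensity relative to the 75th percentile of the array (vertical axis) in 2T-WT (blue) and 2T-p190-B-/- (red) for the 5 Atp5l probes and for 1 probe each of Gm9391, Gm4853 and Gm6822, with a symbol for each replicate and lines for the mean ± SD (n = 3); panel titles give the number of arrays well above background in each group. A_55_P2000909, A_55_P2024021 and Gm9391 separate the groups, whereas the other 5 probes overlap.

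Subunit c, which forms the rotating ring, is encoded by Atp5g1, Atp5g2 and Atp5g3. Atp5g3 was above background on no array. Atp5g2 was at 4.36, -0.13 and 1.18 in 2T-WT and at 2.53, 3.29 and 0.18 in 2T-p190-B-/-, a difference of 0.20 ± 1.31 (SE). Atp5g1 was at 2.34, 2.30 and 9.32 in 2T-WT and at 1.58, 1.51 and 2.20 in 2T-p190-B-/-. The groups did not overlap, but 2T-WT replicate 3 stood far above every other array. The difference was -2.89 ± 1.76 (SE) with all arrays and -0.56 ± 0.64 without 2T-WT replicate 3.

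The Atp5g1 probe (chr11:95934315-95934374, mm9, - strand) ends in a run of CAA repeats that 3 other probes on the array also hold. Bases 31 to 60 of the Atp5g1 probe and stretches of 30 bases from 2 of the others are shown, with 18 bases of the repeat in capitals.
Atp5g1: tttaccattaaaCAACAACAACAACAACAA
Brsk1: CAACAACAACAACAACAAcaaaaataaata
Gm3384: CAACAACAACAACAACAAcaacaacaacta
All 3 other probes, 2 of Brsk1 (a brain kinase gene) and 1 of Gm3384, were above background on all 6 arrays, were brightest on 2T-WT replicate 3 and lay lower on every 2T-p190-B-/- array, with differences from -1.47 to -1.28. Over all tested probes, 2T-WT replicate 3 was the brightest 2T-WT array for 46.3%, and 11.8% lay lower without overlap. Brsk1 (A_55_P2134092) was at 7.8, 7.01 and 8.74 in 2T-WT and at 6.26, 6.34 and 6.56 in 2T-p190-B-/-. The part of the repeat in the Atp5g1 values was not tested.

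Of the remaining ATP synthase genes, Atp5c1, the gamma subunit of the central stalk, differed by -0.01 ± 0.71 (SE). The 2 Atp5h probes, for subunit d of the peripheral stalk, disagreed: the brighter gave -0.31 and the dimmer 3.52. The dimmer probe was above background on 1 2T-WT array and on all 3 2T-p190-B-/- arrays, and shares at least 20 bases with probes named Gm4953 and LOC674469. Atp5j2, subunit f, was at 0.01, -1.27 and 1.88 in 2T-WT and at 1.12, 3.26 and 1.28 in 2T-p190-B-/-, a difference of 1.68 ± 1.02 (SE) with overlap. In all, 20 member probes of 16 genes share 20 or more bases with probes of 22 other names, by as few as 1 stretch of 20 bases (Ndufb3 with Gm3192) and as many as 36 (Ndufb11 with Gm6444). Whether these probes bind the same transcripts was not tested.

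Among the genes described apart, cytochrome c (Cycs) was at -1.93, 0.41 and -0.08 in 2T-WT and at -1.35, -1.42 and -0.19 in 2T-p190-B-/-, a difference of -0.45 ± 0.85 (SE). Ndufa4l2 was at -0.23, -0.56 and 0.12 in 2T-WT and at -1.02, -0.75 and -0.68 in 2T-p190-B-/-. Its groups did not overlap, and with a difference of -0.59 ± 0.65 (SE) it had the smallest difference of the 8. The assembly factor genes Ndufaf2 and Ndufaf4 each differed by 0.44, with signal above background on 3 arrays.

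The mitochondrial genome encodes the remaining subunits, which the name rule does not take. The array held a probe for 12 of them, of which 7 are placed on the mitochondrial genome and 5 on a stretch of chromosome 1 that resembles it. All 12 were tested, with 8 differences above and 4 below 0 and a median of 1.11. Their summed linear level, in the unit used for the marker lists, pointed the other way. It was 422 to 855 in 2T-WT and 238 to 363 in 2T-p190-B-/-, lower without overlap. The sums of the B lymphocyte, red cell precursor and monocyte and macrophage markers also lay lower without overlap, while those of the other marker lists overlapped. A lower sum was thus not particular to these subunits. The COX3, ND3 and ND4L probes, all placed on chromosome 1, were each well above background on 1 2T-WT and 2 2T-p190-B-/- arrays. Their differences above 0 thus rest in part on signals not well above background. COX1, the catalytic subunit of complex IV, was at 1.47, -2.23 and -1.54 in 2T-WT and at 2.21, 2.03 and 4.34 in 2T-p190-B-/-, a difference of 3.63 ± 1.14 (SE; limma adjusted p = 0.637). ND4 and ND5, proton-pumping subunits of complex I, lay lower on every 2T-p190-B-/- array, by -2.20 ± 0.82 and -1.76 ± 0.70 (SE; adjusted p = 0.637 for both). ND1 was at 6.98, 5.91 and -3.20 in 2T-WT but at 4.87, 4.28 and 4.90 in 2T-p190-B-/-, and its 2T-WT replicate 3 stood 9.11 below the next array of its group. Probes for subunits that are cut from the same long precursor thus had differences of opposite sign.

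Genes that build or feed the chain were read from 4 lists. Of 40 assembly factors on the array, 24 were tested, 7 higher and 17 lower, with a median difference of -0.85 against -0.36 for all genes. Sdhaf4, a complex II assembly factor (-2.57 ± 0.90, SE), and Sco1, a copper chaperone of complex IV (-1.42 ± 0.76), lay lower on every 2T-p190-B-/- array. Of 22 genes of pyruvate dehydrogenase and the tricarboxylic acid cycle, 15 were tested, 6 higher and 9 lower, with a median of -0.36, and Dlat, the acetyltransferase of pyruvate dehydrogenase, lay lower without overlap. Of 19 regulators, 13 were tested, 5 higher and 8 lower, with a median of -0.36, and Ppargc1a, a coactivator of mitochondrial genes, lay lower without overlap at -0.74 ± 0.69 (SE). The Ppargc1a probe was well above background on 1 2T-WT and 2 2T-p190-B-/- arrays, so that its separation rests in part on signals not well above background. Of 16 carriers, uncouplers and other electron donors, 7 were tested, 2 higher and 5 lower, with a median of -0.79. Without overlap, 2 of 24 assembly factors, 1 of 15 genes of the second list, 1 of 13 regulators and 0 of 7 carriers and others lay lower. In each list 0 genes lay higher without overlap. Of all genes tested, 12.6% lay lower and 4.17% higher without overlap. No gene of these lists passed an adjusted p of 0.05.

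The promoters of the members were searched for letters that regulators of mitochondrial genes are known to bind, on both strands of the 250 bases before the start site (RefSeq, GRCm38.p6, 75 of 92 genes matched). The NRF1 core GCGCATGCG was found in 8 of them (10.7%), against 1.64% of the 27025 promoters in the table. The 8 were Atp5g2, Atp5k, Atp5l, Cox6a1, Cycs, Ndufa11, Ndufa8 and Ndufaf4. The letters of an ETS site bound by GABP, CCGGAAGT, stood in 4% of member promoters and 3.23% of all, the YY1 core AAGATGGCG in 2.67% and 0.71%, and TCAAGGTCA, which ERR proteins bind, in 1.33% and 0.42%. The Atp5l and Cycs promoters are shown because one gene had the largest difference and the other encodes the mobile carrier, with the NRF1 letters in capitals.
Atp5l, chr9:44920963-44920992 (- strand): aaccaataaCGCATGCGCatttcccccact
Cycs, chr6:50566611-50566640 (- strand): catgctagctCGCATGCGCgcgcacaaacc
Of the 8 genes, Atp5g2, Atp5k, Atp5l, Cycs, Ndufa11 and Ndufaf4 were tested. Their differences ran from -0.45 in Cycs to 4.56 in Atp5l, and Nrf1 itself differed by -0.08 ± 1.25 (SE).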

How the data were processed

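RNA of LSK-SLAM cells was measured on 6 Agilent arrays, 3 2T-WT and 3 2T-p190-B-/-, grouped by the sample labels. The authors deposited each scanner output, made with Agilent Feature Extraction 10.5.1.1, whose processed signal is a linear intensity with background removed, and a table of the same intensity divided by 1 number per array. Probe coordinates in the files are mm9. Symbols of other genes and promoter sequences came from RefSeq tables of GRCm38.p6.

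Control and outlier spots were left out. Each signal was divided by the 75th percentile of its array, taken as log2 and averaged over the spots of its probe. The 25160 probes that were measured above background in 3 or more of the 6 arrays, with values for a fit, were tested with limma 3.58.1 (R 4.3.3, lmFit and eBayes, no covariates) and Benjamini-Hochberg adjustment over all probes, after the steps had been tested on simulated data. A gene is represented by the tested probe with the highest mean signal. At least N-fold values set the mean of the detected group against the other group's mean of, per array, the lowest signal well above background or the probe's own if higher.

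Alternatives were quantile normalization, normexp (offset 50), other filters, the authors' table, the mean over probes, slide or replicate number as a block, slide 2 alone, an intensity trend, each array left out, Ndufa4 with complex I, and the methods' t-test. Members, lists and the rule for named genes (groups without overlap, the 5 highest and 5 lowest measured on all 6 arrays, fixed core subunits and isoforms, disagreeing probes) were chosen with earlier results of these data known; not every gene the rule names is reported here. The number of arrays limits precision, and p-values measure only the spread between these arrays.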

Additional observations from a re-analysis of the deposited data

How the results depend on the processing

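No alternative gave a member gene an adjusted p under 0.05, where the lowest was 0.281 (without 2T-WT replicate 2). The methods' t-test unadjusted with a 2-fold difference took 3 member genes and 1613 probes, in place of 0 and 0. The 8 member genes without overlap kept their sign in each alternative that measured them. Leaving out arrays, taking slide 2 alone, blocks and the intensity trend could not change the sign where groups do not overlap. With normexp, 5 of the 8 shrank by over 1.5 times (Atp5l to 1.64, Atp5o to -2.10, Ndufb7 to -1.23, Ndufa2 to 0.28 and Ndufa5 to -0.28). Member genes without overlap numbered 13 lower and 7 higher on slide 2 alone, where 33.6% and 12.7% of all probes did so, and 6 to 11 lower and 3 to 6 higher with 1 array left out, where 15.6% to 25.3% and 7.57% to 10.03% of all probes did so. With normexp, 1 member gene lay higher and 8 lower without overlap, where 3.36% and 20.43% of all probes did so. Limited to probes above background on all 6 arrays, the counts were 1 and 5, against 3.28% and 14.04% of such probes. Of the 2 higher and 6 lower genes without overlap under the scaling used here, 1 and 4 still separated the groups with normexp. The complex V median was 0.98 with the mean over probes, and 1.83 with the slide as a block and on slide 2 alone, and the complex III median was -0.92 with probes above background on all 6 arrays. With 1 array left out, the medians ran from -0.56 to 0.33 for complex I, -1.32 to -0.42 for II, -0.62 to -0.14 for III, -0.51 to -0.07 for IV, -0.40 to 1.11 for V, and -0.30 to -0.08 for all members. The cause of these shifts was not tested. Scaling moved the median of all probes from -0.33 to -0.10 (quantile), -0.21 (the authors' table) and -0.47 (normexp), and that of member genes to -0.00, 0.01 and -0.25. Same-numbered arrays of the 2 groups deviated together by correlations of 0.009 to 0.086 and share only a number. With the replicate block, 0 member genes passed limma's test. A block leaves the array values as they are, so that the 2 higher and 6 lower genes without overlap could not change. Of all probes in that fit, 4.53% lay higher and 11.7% lower without overlap. Dim probes and 3 arrays a group limit every value.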

Other observations

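The array also held 11 probes of 10 genes whose current RefSeq symbols belong to this family but whose names in the files do not match the rule. Of these probes 6 were tested. The Ndufaf7, Ndufa11b, Cox6c2 and Uqcrh-ps1 probes and 1 of 2 Ndufaf5 probes were well above background on all 6 arrays, while those of Ndufb1, Ndufaf8 and Atp5mpl were above it on none.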
